A study of Mus musculus with 6 samples.

Results

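Translation initiation and elongation factors are the proteins that load messenger RNA and the initiator tRNA onto the ribosome and then carry it along the message. The members described here are the genes of the deposited normalized table whose symbols begin with Eif1 to Eif6 or Eef, without the eIF2 alpha kinases (Eif2ak genes) and without pseudogenes. The rule found 56 protein-coding genes among 12179 genes of that table, and their reads were taken from a table of raw counts that lists 27179 genes. The rule uses names alone, but only genes of the normalized table could enter, so the set depends on which genes that table holds. Eif1b, Eef1a2, Eif2s3y and Eif4e1b, each with at most 2 reads in any library, are not in it. Eif5a2 and Eif6, with 0 reads in each WT library, are in it.

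The libraries are bulk RNA-seq of long-term hematopoietic stem cells (LT-HSCs) sorted from the bone marrow of C57BL/6 mice as CD150+CD48-LSK cells, where LSK stands for lineage-negative, Sca-1+, c-Kit+. There are 3 libraries from WT mice and 3 from mice heterozygous for Foxm1 (Foxm1 HET), a forkhead transcription factor, and the study compared them to learn what losing 1 copy of the gene does to LT-HSCs. The mice were 8 weeks of age. The titles of the heterozygous libraries name a floxed allele over a wild-type allele (FoxM1flPlus) and no Cre, and the study used Cre under the Tie2 promoter, which is active in endothelial as well as blood cells, and inducible Mx1-Cre in separate experiments. Its description of the RNA-seq does not say which driver was used or whether the controls carried the floxed allele. It does say that 3 pairs of animals were used, so p-values measure the spread between these 6 animals and their libraries together. Replicates are called WT 1 to 3 and HET 1 to 3 below.

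Each library held between 14573002 and 25798509 reads on genes, the fewest in HET 2, which also had the fewest genes with 10 or more reads. Reads on the targeted gene Foxm1 numbered 1182, 2615 and 2942 for WT and 659, 5 and 742 for HET, so every HET library was lower than every WT library. In scaled log2 CPM the HET libraries were also wholly below WT, as were those of 4.55% of all genes tested. The log2 fold change of Foxm1, HET over WT, was -3.30 ± 2.33 (SE, edgeR adjusted p = 0.961), so the targeted gene did not pass the test. Xist had at least 79593 reads in every library. Of 10 LT-HSC markers, 6 had 10 or more reads in every library, and their summed level ranged from 1348 to 3464 TPM in WT and from 2503 to 3047 in HET. TPM divides reads by gene length and brings every library to the same sum. It is the only scale here on which the abundance of genes is compared. Ly6a, which encodes Sca-1, had 4 and 2 reads in WT 2 and WT 3 and 2 in HET 2, so transcripts of this sort marker were near 0 in 3 libraries. Slamf1, which encodes CD150, had 2, 1572 and 0 reads for WT and 8, 0 and 543 for HET. Cd48, which the sort selects against, had 221, 6608 and 1 for WT and 1285, 5 and 22 for HET. All 5 neutrophil markers (S100a8, S100a9, Ltf, Ngp and Camp) had 10 or more reads in every library, and their summed level was 14265 to 27687 TPM in WT and 1585 to 13944 in HET. The sums of the genotypes did not overlap, but of the 5 genes S100a9 alone separated them in scaled log2 CPM, where 8.68% of all genes tested did. B cell markers summed to 24.3 to 165 TPM in WT and at most 11.7 in HET, with Cd79a, Ms4a1 and Ebf1 at 0 throughout. The erythroid sum was 25.9 to 338 TPM against 0.19 to 122, the committed progenitor sum 1812 to 3424 against 1140 to 2807, the macrophage sum 8.23 to 172 against 2.81 to 127 with C1qa at 0, the T cell sum at most 6.23 against at most 50.6 with Cd3d and Cd3g at 0, and the megakaryocyte sum at most 26.6 against at most 12.2. The part of these differences in the results below was not tested, and in bulk RNA fewer cells of a type and less RNA per cell cannot be told apart.

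Initiation begins when eIF2 brings the initiator tRNA to the small ribosomal subunit, helped by eIF1, eIF1A, eIF3 and eIF5. The mRNA is recruited through its cap by eIF4E, which binds the scaffold eIF4G and with it the helicase eIF4A, while eIF4E-binding proteins compete with eIF4G. After the subunits join, eEF1A delivers each aminoacyl-tRNA and eEF2 moves the ribosome to the next codon. Hematopoietic stem cells are known for a low rate of protein synthesis, which is held down in part through eIF4E-binding proteins, and many of these factors are encoded by mRNAs with a run of pyrimidines at the start that puts their translation under mTORC1.

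Because Foxm1 belongs to the forkhead family, the start regions of the members were searched for a forkhead core. A RefSeq start region (250 bases before to 50 bases after an annotated start, GRCm38.p6, the build of the deposited tables) was given for 43 members. The letters TGTTTA, on either strand, were present in 4 of those 43 (9.30%), against 10.4% of the 6500 tested genes that have such a region and 15.1% of 27025 genes in all. These 4 matches are shown with 12 bases on each side, the matched letters in capitals, 5′ to 3′ on the gene's own strand. They lie at chr10:81176390-81176419 on the plus strand for Eef2, chr7:120851019-120851048 on the plus strand for Eef2k, chr2:154893031-154893060 on the minus strand for Eif2s2 and chr16:23107255-23107284 on the plus strand for Eif4a2. The Eef2k match precedes an annotated start inside the gene, whose deposited span begins at position 120842855.

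Eef2: ctgaggaatctaTGTTTAaaaacccatccg

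Eef2k: cctgacccaggtTAAACAgatgaaggttaa

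Eif2s2: aacatcctgacaTGTTTAaaacagtcgtgc

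Eif4a2: ttcctgtcacatTAAACAgcagtgagaacg

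A second element, TTTGAA (the cell cycle homology region of cell cycle promoters), was in 7 of the 43 (16.3%), against 14.4% of tested genes and 20.2% of all. The E-box CACGTG, the core letters bound by Myc and related factors, was in 11 of the 43 (25.6%), against 12.3% and 8.09%. A start-site pyrimidine run, a C followed by at least 4 pyrimidines within 5 bases of the start, was in 10 (23.3%), against 24.3% and 21.2%. The E-box was the element more frequent among members than among tested genes by the widest margin. It is shown for Eef2 (chr10:81176576-81176605, plus strand), Eif5a (chr11:69921443-69921472, minus strand) and Eif4g1 (chr16:20672661-20672690, plus strand), 3 of the 11 members that carry it. By mean TPM these 3 rank 1, 3 and 22 among all members. The Eif5a window lies inside the deposited span of the gene, before an annotated start within it. A match is a string of letters and no evidence of binding.

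Eef2: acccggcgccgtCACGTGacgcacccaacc

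Eif5a: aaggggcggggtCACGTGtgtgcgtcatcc

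Eif4g1: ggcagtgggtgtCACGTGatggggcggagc

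No translation factor passed the test between Foxm1 HET and WT LT-HSCs, and neither did Foxm1 itself. Not passing does not show that a factor was unchanged. edgeR's quasi-likelihood test on the counts tested 51 members among 8195 genes, and 0 of the 51 had a Benjamini-Hochberg adjusted p under 0.05 (lowest 0.945, for Eif4e3), where 27 of all genes tested (0.329%) did. At an unadjusted p under 0.05 the count of members was also 0, against 494 genes (6.03%), and the lowest p was 0.128. DESeq2 called 0 members as well, while it called 424 of the 7247 genes it gave an adjusted p (5.85%). Its unadjusted p was under 0.05 for 4 of 56 members, namely Eef1d, Eif2b1, Eif4ebp3 and Eif6, against 1325 of 13845 genes (9.57%), and 5 members got no adjusted p. The 5 members left untested by the filter on low counts were Eef1e1, Eif2b1, Eif4ebp3, Eif5a2 and Eif6.

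Fold changes below are log2 of Foxm1 HET over WT from the edgeR fit, with their SE, after TMM scaling, which sets the libraries to a common level from the bulk of their genes. Their median over the 51 tested members was -0.34, and over all genes tested -0.26. In the fit 21 members were higher in HET and 30 lower, so 41.2% of members were higher against 45.4% of all genes. The split was 26 higher and 25 lower with upper-quartile scaling and 28 and 23 with library size alone, which moved the median of all genes to 0.14 and 0.10. No general direction can be read from these counts.

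**Figure D1:**
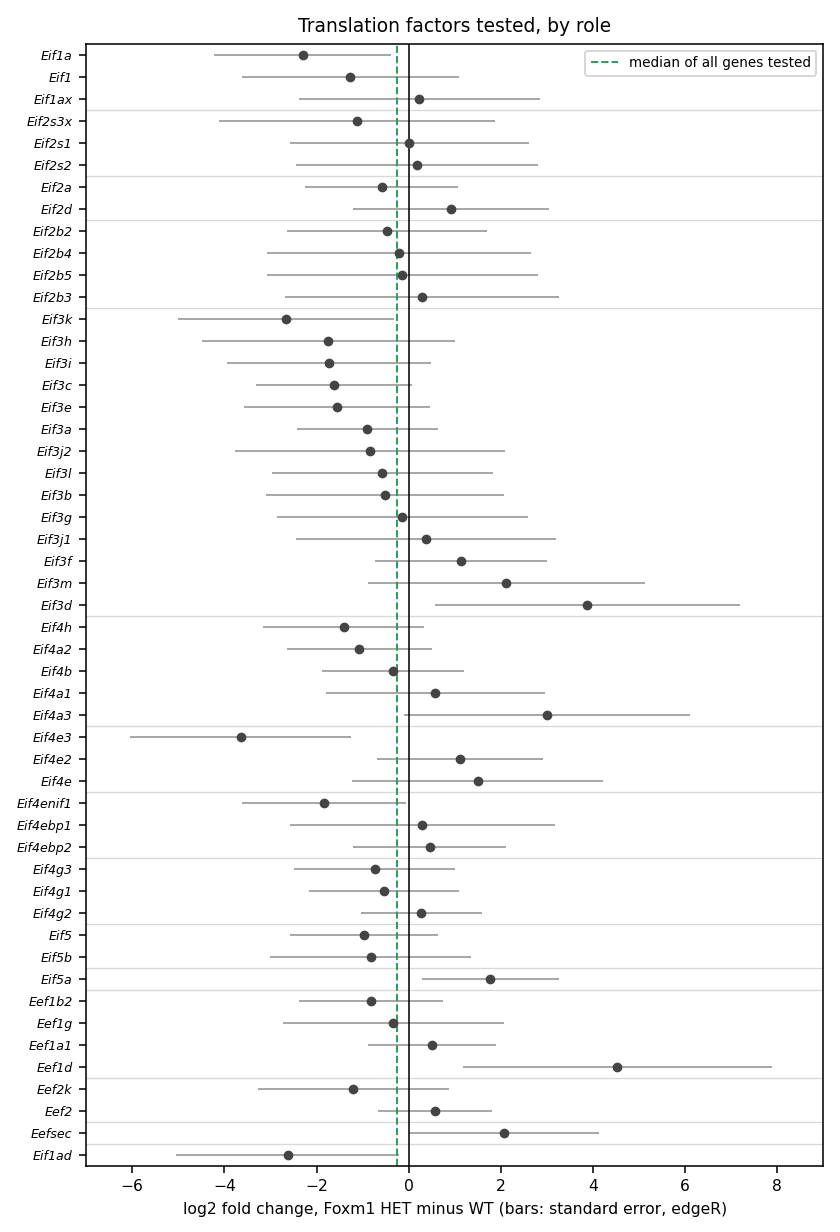
Each point is the edgeR log2 fold change (Foxm1 HET minus WT, 3 libraries each) of 1 of the 51 tested members, grouped by role between grey lines, and bars are 1 SE. The dashed line is the median of all genes tested (-0.26), and none of the members passed the test.

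The fitted differences of members were smaller than those of the typical gene, and so were their errors. The median absolute log2 fold change was 0.90 for members and 1.60 for all genes tested, with median SE of 2.22 and 2.59. Members had more reads than the typical gene, with a median of mean log2 CPM of 4.39 against 2.82. Log2 CPM is reads per library size on a log scale and is not divided by gene length. Within bands of level, the spread and the SE are given side by side. For genes of mean log2 CPM under 3, the median SD within genotype was 3.34 over 17 members and 3.47 over 4266 genes, and the median SE 2.87 and 2.92. Between 3 and 6 the SD was 2.37 over 17 members and 2.65 over 2696 genes, while the SE was larger for members, at 2.35 against 2.21. At 6 or over the SD was 0.95 over 17 members and 1.37 over 1233 genes, and the SE 1.60 and 1.66. Even there a difference of 2-fold (1 on the log2 scale) lay within 1 SE for the typical abundant factor.

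**Figure D2:**
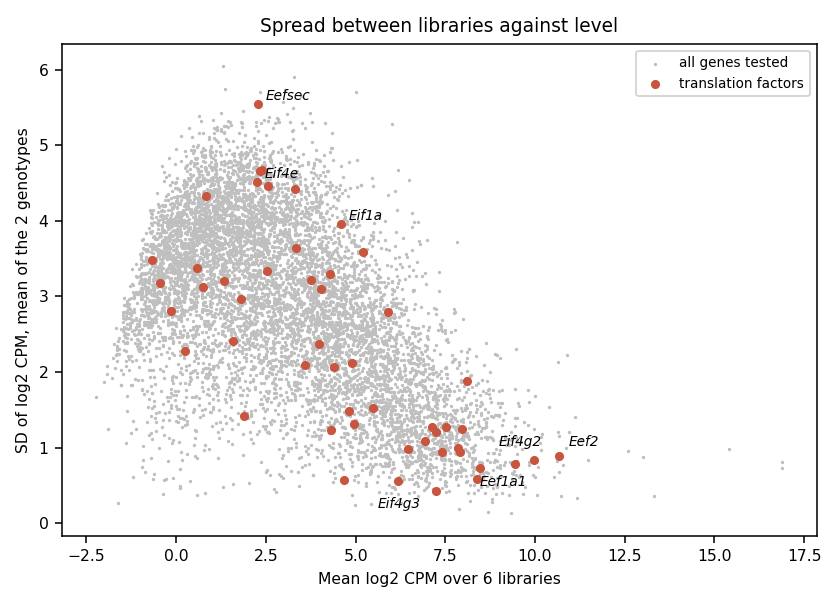
Each point is a gene, with the mean log2 CPM over 6 libraries on the horizontal axis and the SD of log2 CPM within genotype, averaged over WT and HET, on the vertical axis (red, 51 members; grey, all genes tested). The spread of members is smaller at higher level, from a median SD of 3.34 under 3 to 0.95 at 6 or over.

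How many members were detected varied widely within each genotype. Members at or under 3 reads, the limit that a count of 0 allows, numbered 4, 15 and 11 in WT and 1, 19 and 2 in HET. The largest number was in HET 2, where 33.9% of members and 56.7% of all genes of the normalized table were at or under 3 reads, and the smallest in HET 1 with 1.79% and 17.5%. Over all 6 libraries, 32 members had more than 3 reads everywhere and 19 had 100 or more everywhere. Of the other 24, 6 were at or under 3 reads in 1 library, 12 in 2, 2 in 3 and 4 in 4, and for 4 of the 24 HET 2 was the only such library. HET 2 also held the lowest TPM of 23 members, and HET 3 the highest TPM of 18.

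**Figure D3:**
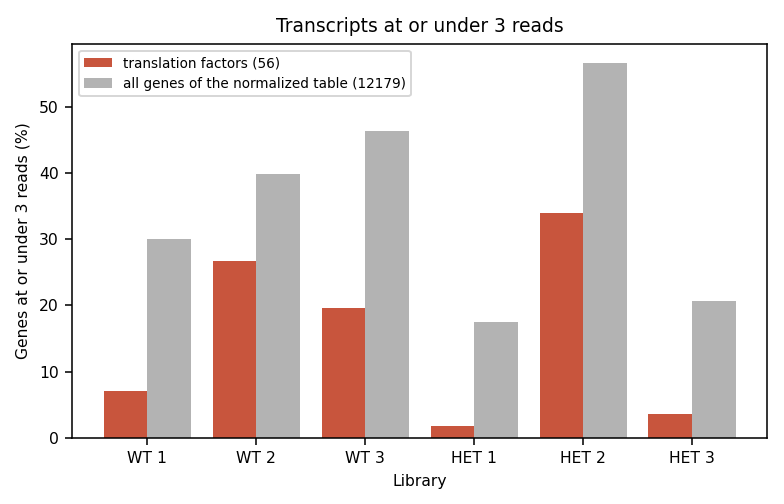
Bars give, for each library, the percent of the 56 members (red) and of the 12179 genes of the normalized table (grey) at or under 3 reads. The red bar is below the grey bar in all 6 libraries, and both are highest in HET 2 (33.9% and 56.7%) and lowest in HET 1 (1.79% and 17.5%).

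Members together took 0.832%, 0.828% and 0.831% of the reads in WT against 0.851%, 0.688% and 0.900% in HET. The WT libraries agreed closely and the HET libraries lay on both sides of them. In TPM the sums were 6465, 6530 and 6172 in WT and 6474, 5313 and 8361 in HET. The 5 most abundant factors overall made up 35.5%, 41.6% and 42.3% of member TPM in WT and 45.2%, 72.1% and 45.7% in HET, highest in HET 2. Pearson's r between pairs of libraries over the members' log2 CPM ran from 0.40 to 0.70, and over all genes tested from 0.29 to 0.44. These are descriptions across genes, which share each library's depth.

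By mean TPM over the 6 libraries the order was Eef2, Eef1a1, Eif5a, Eef1b2, Eif4ebp2, Eif4g2, Eif4b, Eif3f, Eif4a2 and Eif2a. The lowest was Eif5a2, and the ratio of the highest mean to the lowest was 4388. In this order of 10, the range over libraries of each gene overlapped that of the next.

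**Figure D4:**
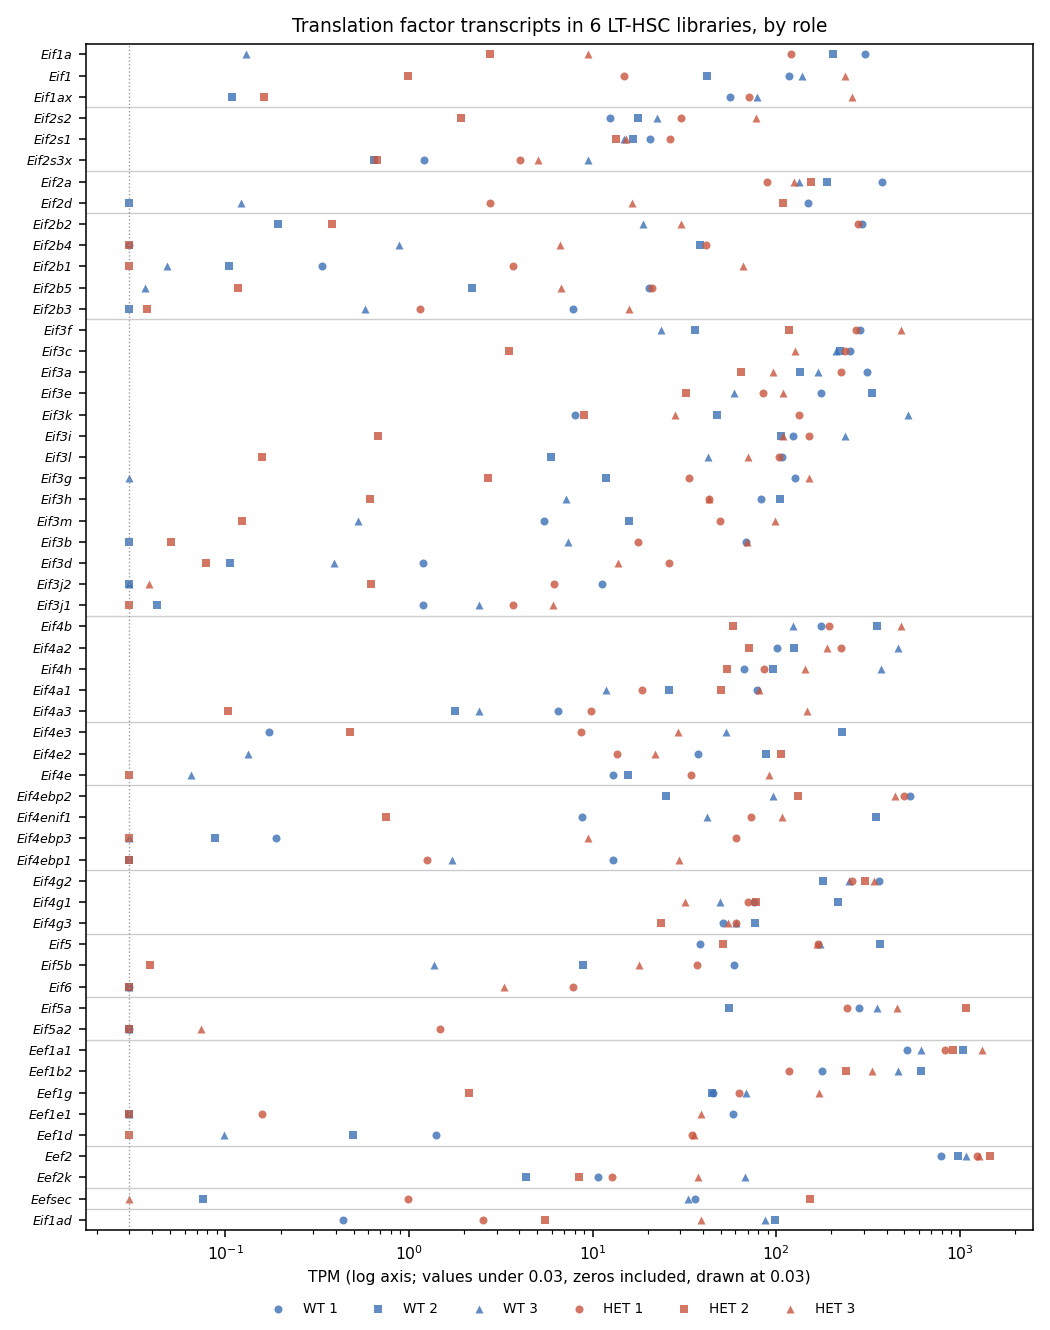
TPM of each of the 56 members (rows, by role between grey lines) in the 6 libraries on a log axis, with WT in blue, HET in red and a marker shape for each replicate number. Values under 0.03 are drawn at 0.03 (dotted line), Eef2 and Eef1a1 are farthest to the right, and for many members a red square (HET 2) is farthest to the left.

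Elongation factors held the top of the order. Eef2 (chr10:81176631-81182509, plus strand) encodes the translocase eEF2. Its TPM were 787, 983 and 1088 in WT and 1245, 1465 and 1267 in HET (953 ± 153 and 1325 ± 121, SD, n = 3). Every HET library was above every WT library on this scale, which was true in either direction of 1 member and of 7.87% of all genes tested. On the TMM-scaled log2 CPM the genotypes overlapped, with 9.99, 10.38 and 11.14 in WT and 10.27, 12.18 and 9.99 in HET. The log2 fold change was 0.58 ± 1.24 (SE, adjusted p = 0.998 by edgeR), -0.14 with limma-voom and -0.40 without HET 2. The TMM factors were 1.13, 1.005 and 0.757 in WT and 1.54, 0.453 and 1.67 in HET, so HET 2 was scaled up and the other HET libraries down. Of its exon bases 14.4% are shared with another annotated gene. The TPM comparison was added after the values of Eef2 had been seen.

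Eef1a1 (chr9:78478453-78481724, minus strand), the tRNA-delivering GTPase eEF1A, had 513, 1038 and 614 TPM in WT and 828, 914 and 1321 in HET. WT 2 lay above HET 1 and HET 2, so the genotypes overlapped. The log2 fold change was 0.51 ± 1.39 (SE). Of the 50-base stretches of its transcripts, 40.4% occur in another gene, so its reads may be split with copies. Eef1a2, its paralog of muscle and neurons, had 0 reads in every library.

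The exchange factor eEF1B that recharges eEF1A is made of Eef1b2, Eef1d and Eef1g. Eef1b2 had 177, 616 and 462 TPM in WT and 118, 240 and 334 in HET, a log2 fold change of -0.82 ± 1.57. Eef1d had 37, 14 and 3 reads in WT against 1201, 0 and 1094 in HET, a log2 fold change of 4.53 ± 3.35 (edgeR adjusted p = 0.971), the largest positive value of any tested member. Its HET libraries thus contained both the highest counts and the only 0. Its WT counts were all under 40. Eef1g had 45.3, 44.5 and 68.3 TPM in WT and 63.0, 2.12 and 172 in HET, and 44.2% of its 50-base stretches occur in other genes. Eef1e1, an eEF1-like component of the tRNA synthetase complex, had 557, 0 and 0 reads against 2, 0 and 440.

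Eef2k, the kinase that inhibits eEF2, had 10.8, 4.32 and 67.4 TPM in WT and 12.7, 8.46 and 37.4 in HET. Its log2 fold change was -1.20 ± 2.07 and became 1.19 without WT 3, the library with the highest level. Eefsec, the elongation factor for selenocysteine, had 894, 2 and 953 reads in WT against 32, 2717 and 0 in HET. Both genotypes thus held a library near 0 beside libraries with far more reads. The fitted log2 fold change was 2.07 ± 2.07 and became -6.22 without HET 2. Eif5a (chr11:69916712-69921958, minus strand) encodes a hypusine-carrying factor that helps the ribosome through difficult peptide bonds. It had 283, 55.2 and 353 TPM in WT and 243, 1077 and 454 in HET, with HET 2 the highest. Its log2 fold change was 1.78 ± 1.49 (edgeR adjusted p = 0.982) and became -0.32 without HET 2. Its paralog Eif5a2 had 0 reads in each WT library and 90, 0 and 4 in HET.

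The multisubunit scaffold eIF3 was the largest group, with 14 members, all tested. Of them 4 were higher and 10 lower in HET, with a median log2 fold change of -0.71 and none past the test. The counts were 5 and 9 with upper-quartile scaling and 7 and 7 with library size alone. Summed over the 14 the TPM were 1565, 1019 and 1284 in WT and 1391, 232 and 1401 in HET (1290 ± 273 and 1008 ± 672, SD). HET 2 was far below the other 5 libraries, and HET 1 and HET 3 lay within the WT range.

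Members whose libraries did not overlap between genotypes in TMM-scaled log2 CPM were Eif3c and Eif3e, both lower in HET. That is 2 of the 51 members, against 711 of all genes tested (8.68%), of which 338 (4.12%) were wholly above and 373 (4.55%) wholly below WT in HET. Eif3c (chr7:126546911-126566366, minus strand), a core subunit, had log2 CPM of 8.24, 8.14 and 8.67 in WT and 7.77, 3.38 and 6.55 in HET. Reads were 6687, 6372 and 6516 in WT and 8311, 67 and 3927 in HET. WT libraries were close together, and HET libraries spread widely, with HET 1 highest in raw reads. The log2 fold change was -1.62 ± 1.69 (edgeR adjusted p = 0.998). In TPM HET 1 (237) lay within the WT range of 211 to 252, so the separation was lost.

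Eif3e (chr15:43250040-43282736, minus strand) encodes an eIF3 subunit and is known as a site of mouse mammary tumor virus integration. It had log2 CPM of 6.82, 7.81 and 5.93 in WT and 5.38, 5.68 and 5.44 in HET. Reads were 2492, 5070 and 976 against 1579, 332 and 1809, which overlap. The HET libraries were close together and just below WT 3. The log2 fold change was -1.55 ± 2.02 (edgeR adjusted p = 0.998). With RLE scaling the 2 non-overlapping members were Eif3c and Eif3i, where 8.83% of all genes tested did not overlap. With upper-quartile scaling or library size alone there were 0, where 8.57% and 7.97% of all genes tested did not overlap.

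Eif3f had the highest mean TPM of eIF3, with 287, 36.0 and 23.5 in WT and 274, 118 and 481 in HET. WT 1 was as high as HET 1 and the other WT libraries lower than all of HET. Its log2 fold change was 1.13 ± 1.87. Eif3d, the subunit able to bind caps, had 21, 2 and 8 reads in WT against 606, 1 and 284 in HET. Its log2 fold change was 3.88 ± 3.32 (edgeR adjusted p = 0.985), HET 2 had the lowest count of all 6 libraries, and 32.7% of its exon bases are shared with an overlapping gene. The near-identical copies Eif3j1 and Eif3j2 share 90.8% of the 50-base stretches of Eif3j2, and their counts cannot be assigned firmly to either. The remaining eIF3 genes had log2 fold changes from -2.66 ± 2.35 (Eif3k) to 2.12 ± 3.01 (Eif3m).

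Start-codon scanning factors varied widely within each genotype, and none passed the test. Eif1, a gatekeeper of start codon choice, had 118, 41.8 and 139 TPM in WT and 14.9, 0.99 and 237 in HET, a log2 fold change of -1.26 ± 2.35. Eif1b, its paralog, had 2 reads in WT 1 and 0 elsewhere. The eIF1A pair showed the sharpest alternation. Eif1a had 8062, 5833 and 4 reads in WT against 4222, 53 and 295 in HET. The X-linked Eif1ax had 481, 1 and 777 in WT and 797, 1 and 2579 in HET. Eif1a thus made 84.4%, 99.9% and 0.17% of the eIF1A TPM in WT and 63.0%, 94.5% and 3.55% in HET, and no 50-base stretch is shared by these genes. A library of each genotype (WT 3 and HET 3) was made almost wholly of Eif1ax, and a library of each (WT 2 and HET 2) almost wholly of Eif1a. The log2 fold change was -2.30 ± 1.92 for Eif1a and 0.23 ± 2.62 for Eif1ax. This pair was singled out after its values had been seen.

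Of eIF2, which carries the initiator tRNA, Eif2s1 (the alpha subunit phosphorylated in stress) was among the steadiest members. It had 20.7, 16.7 and 14.8 TPM in WT and 26.3, 13.4 and 15.1 in HET, a log2 fold change of 0.01 ± 2.59. Eif2s2 (beta) had 12.5, 17.8 and 22.5 TPM in WT and 30.5, 1.92 and 77.7 in HET, 0.18 ± 2.62 on the log2 scale. Eif2s3x (gamma) had 40, 23 and 364 reads in WT against 176, 16 and 195 in HET, -1.12 ± 2.998, and 34.6% of its 50-base stretches occur in other genes. Its Y-linked copy Eif2s3y had 0 reads in all 6 libraries. So did the Y-linked genes Ddx3y and Kdm5d, while Uty, also Y-linked, had 1 read in WT 2 and 13 in HET 3. The labels do not give the sex of the animals. For the 3 detected subunits the summed TPM were 38.7 ± 6.9 in WT and 58.3 ± 41.0 in HET (SD, n = 3), the second with HET 2 lowest and HET 3 highest.

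eIF2B, which reloads eIF2 with GTP, was detected unevenly. Eif2b2 had 4264, 3 and 318 reads in WT against 5359, 4 and 516 in HET, a log2 fold change of -0.47 ± 2.17. Each genotype held a library near 0 beside libraries with far more reads. Eif2b1 was not tested and had 6, 2 and 1 reads in WT against 87, 0 and 1387 in HET. The other 3 subunits, Eif2b3 to Eif2b5, each had libraries at or under 2 reads in both genotypes. Of the alternative carriers, Eif2a had 377, 189 and 133 TPM in WT and 89.2, 156 and 124 in HET, a log2 fold change of -0.58 ± 1.66 that was 0.21 with RLE scaling. Eif2d had 3131, 0 and 3 reads against 77, 1666 and 404, a log2 fold change of 0.92 ± 2.12, and 9.80 without WT 1.

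Among cap-binding proteins the most abundant member differed from library to library. Eif4e, the main cap receptor, had 343, 446 and 2 reads in WT against 1209, 0 and 2847 in HET. Eif4e2, which represses translation of bound mRNAs, had 1711, 4327 and 7 in WT and 814, 3457 and 1163 in HET. Eif4e3, an atypical cap binder, had 4, 5683 and 1440 in WT and 266, 8 and 792 in HET.

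In shares of the eIF4E family's TPM, Eif4e made 25.4%, 4.70% and 0.12% in WT and 60.8%, 0% and 64.2% in HET. Eif4e2 made 74.2%, 26.7% and 0.25% in WT and 23.9%, 99.5% and 15.3% in HET. Eif4e3 made 0.34%, 68.6% and 99.6% in WT and 15.3%, 0.45% and 20.5% in HET. Each of the 3 led in some library, and none led in all libraries of either genotype. Log2 fold changes were 1.496 ± 2.72 for Eif4e, 1.11 ± 1.81 for Eif4e2 and -3.65 ± 2.40 for Eif4e3, the last with the lowest p of any member (edgeR adjusted p = 0.945). No 50-base stretch is shared within this family, which was chosen for description after its values had been seen.

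**Figure D5:**
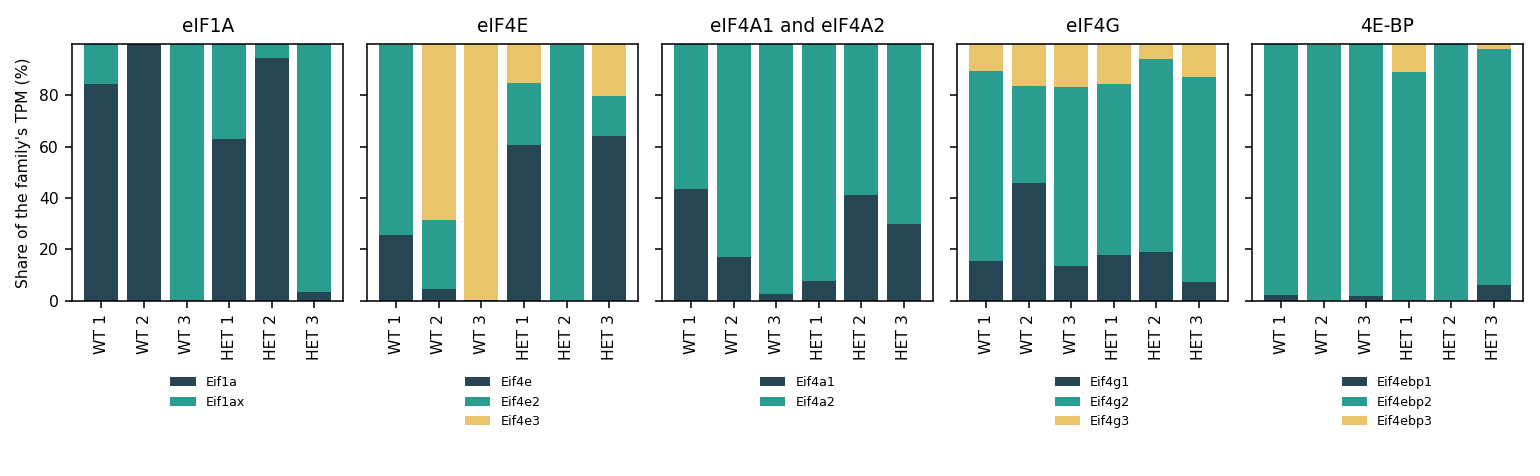
Share of each paralog family's summed TPM taken by each member in each of the 6 libraries, in percent (stacked bars; 4E-BP stands for the eIF4E-binding proteins). Eif4ebp2 and Eif4a2 lead in all 6, whereas the leading member of eIF1A and of eIF4E changes between libraries of both genotypes.

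The eIF4E-binding protein and eIF4A families each had 1 leader in all 6 libraries. Eif4ebp2, an inhibitor of eIF4E released by mTORC1, took 89.0% to 100% of the TPM of the 3 eIF4E-binding proteins. It had 534, 25.1 and 96.0 TPM in WT and 495, 132 and 445 in HET, a log2 fold change of 0.46 ± 1.66 that was -0.11 without WT 2. Eif4ebp1 had 117, 0 and 18 reads against 15, 0 and 313, and Eif4ebp3, which was not tested, 2, 1 and 0 against 841, 0 and 117. Eif4enif1, which carries eIF4E into the nucleus and into P bodies, had 344, 14628 and 1905 reads in WT against 3734, 21 and 4931 in HET. Its log2 fold change was -1.84 ± 1.79 and became 0.089 without WT 2.

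The helicase gene Eif4a2 was above its paralog Eif4a1 in all 6 libraries, at 56.4% to 97.5% of their sum in TPM. Of the 50-base stretches of their transcripts, 28.4% for Eif4a1 and 13.6% for Eif4a2 occur in other genes. Reads of both, and more so of Eif4a1, may thus be split with copies, and the effect on these shares was not tested. Eif4a2 had 102, 126 and 460 TPM in WT and 226, 70.9 and 189 in HET (-1.07 ± 1.58 in log2), and Eif4a1 78.6, 26.0 and 11.9 in WT and 18.6, 49.9 and 81.0 in HET (0.58 ± 2.38). WT 3 held both the highest Eif4a2 and the lowest Eif4a1. Eif4b, the helicase cofactor, had 177, 355 and 123 TPM against 195, 58.3 and 481, a log2 fold change of -0.34 ± 1.54. Eif4a3, a helicase of the exon junction complex rather than of initiation, had 88, 26 and 38 reads in WT against 174, 1 and 2328 in HET (3.01 ± 3.10), so HET held the highest and the lowest count.

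eIF4G scaffold genes were the most even group. Their summed TPM were 493, 472 and 361 in WT and 391, 405 and 428 in HET (442 ± 71.2 and 408 ± 18.6, SD, n = 3), so the HET sums lay inside the WT range. Eif4g2, which supports initiation without eIF4E, led in 5 of the 6 libraries with 366, 179 and 250 TPM in WT and 260, 304 and 341 in HET (0.28 ± 1.32 in log2). Eif4g1, the main cap-dependent scaffold, had 75.5, 216 and 49.4 in WT and 70.1, 77.7 and 31.9 in HET (-0.53 ± 1.63), and led in WT 2 with 45.8% of the sum. Eif4g3 had log2 CPM of 7.09, 7.74 and 8.01 in WT and 6.94, 7.25 and 6.49 in HET, a log2 fold change of -0.74 ± 1.75. HET 2 was above WT 1, so its genotypes overlapped.

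For subunit joining, Eif5, which activates GTP hydrolysis on eIF2, had 38.6, 367 and 174 TPM in WT and 169, 51.6 and 167 in HET, a log2 fold change of -0.97 ± 1.60. Eif5b, the joining GTPase, had 58.8, 8.92 and 1.37 TPM in WT and 37.2, 0.039 and 17.8 in HET (-0.83 ± 2.19). Eif6, which keeps ribosomal subunits apart, was not tested and had 0 reads in each WT library and 142, 0 and 53 in HET. Eif1ad, which falls in no role group, had 10, 2409 and 2308 reads in WT against 76, 90 and 1041 in HET (-2.62 ± 2.42).

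Genes that act on these factors were also read from lists. Of 12 genes of eIF2 alpha phosphorylation and the integrated stress response, 10 were tested and 0 passed the adjusted or unadjusted test, with 4 higher, 6 lower and a median log2 fold change of -2.34. Of these 10, 2 were wholly lower in HET, where 4.55% of all genes tested were. Ddit3, the stress-induced factor CHOP, had 149, 133 and 996 reads in WT against 24, 0 and 18 in HET (-6.08 ± 3.55, edgeR adjusted p = 0.921). Ppp1r15a, the phosphatase subunit that reverses eIF2 alpha phosphorylation, had 2234, 1247 and 7779 in WT and 1293, 323 and 1333 in HET (-2.47 ± 1.93, adjusted p = 0.982). WT 3 was highest for both, and the raw reads of Ppp1r15a overlapped. Both were named for not overlapping after their values were seen, as were the non-overlapping genes of the other lists.

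Of 14 genes of the mTORC1 and MNK arm, 13 were tested, 5 were higher and 8 lower, and 0 passed the adjusted test. Tsc2, an inhibitor of mTORC1, was the 1 of 13 tested with an unadjusted p under 0.05, against 6.03% of all genes tested. Its reads were 1080, 10 and 732 for WT and 3222, 17062 and 1706 for HET. The log2 fold change was 4.86 ± 1.74, with an edgeR adjusted p of 0.343. HET 2, the shallowest library, held the highest count, and the log2 CPM of the genotypes overlapped. Mknk2, a kinase that phosphorylates eIF4E, had 860, 1064 and 1353 reads in WT against 8, 2 and 406 in HET (-4.05 ± 2.88, adjusted p = 0.962). It was the 1 of 13 tested whose HET libraries were all below WT, as were those of 4.55% of all genes tested.

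Of 12 poly(A)-binding, termination and recycling factors, 10 were tested, 7 were higher and 3 lower, and 0 passed either threshold. Paip2, a repressor of poly(A)-binding protein, had 937, 1873 and 966 reads in WT against 3651, 2829 and 5357 in HET (1.83 ± 1.84), and was the 1 of 10 wholly above WT, against 4.12% of all genes tested. Pabpc4, a poly(A)-binding protein, had 1493, 711 and 907 against 928, 73 and 311 (-1.85 ± 2.57), overlapping in reads but wholly below WT in scaled log2 CPM, against 4.55% of all genes tested. Of 9 enzymes that make hypusine on eIF5A or diphthamide on eEF2, only 2 passed the filter and both were lower in the fit, neither past a test. Dph6, of the diphthamide pathway, had 1576, 6439 and 1006 reads against 678, 5 and 2084 (-2.61 ± 2.14), and was 1 of these 2 wholly below WT in scaled log2 CPM, against the same 4.55%. Dhps, the first enzyme of hypusine synthesis, had 2 reads or fewer in every library, while its substrate gene Eif5a had at least 1103.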

How the data were processed

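The authors sorted LT-HSCs and sequenced their RNA in single-read runs of 50 bases. Per the labels RNA was depleted of ribosomal RNA and made into stranded libraries, while the study's methods name another kit. The submitters' processing notes list STAR 2.7.2b, limma and GRCm38 (mm10). Deposited were a table of whole-number read counts for each gene and a table that the authors normalized, in log2 values with the same maximum in every library, by a method not given in the sources used here. Identifiers of 94.1% of count rows were named. Counts were tested with edgeR 4.0.16 (R 4.3.3): filterByExpr, TMM, glmQLFit and glmQLFTest, all 6 libraries, no covariate, Benjamini-Hochberg adjustment over all genes tested. Log2 CPM used a prior count of 2, and TPM used the gene lengths deposited with the counts. Start regions and their coordinates came from RefSeq, gene coordinates were those deposited with the counts, and shared stretches came from GENCODE vM21. Alternatives used DESeq2 1.42.0 and limma 3.58.1. Members, lists and tests were chosen with earlier results of these data known. Named with values are Foxm1, members with an unadjusted p under 0.05 or without overlap, the most abundant and lowest-p member of each role, and set paralogs; other members stand beside them to complete a family. Counting strand is not given in the sources used here. The limit of 3 reads covers counting error only.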

Additional observations from a re-analysis of the deposited data

How the results depend on the processing

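No member passed an adjusted p of 0.05 in any of the 16 alternatives, though DESeq2 gave 5 members no adjusted p; unadjusted, Eif3f passed 0.05 on the normalized table (2.04% of all genes did), Eif2d without WT 1 (6.52%), and Eif4ebp3 and Eif6 without HET 2 (6.36%). Genes called among all tested numbered 27, and 10 with RLE scaling, 43 with upper-quartile scaling, 7 with library size alone, 0 with at least 10 reads in every library (157 unadjusted), 424 with DESeq2, 4 with limma-voom, 0 with limma on log2(CPM + 1) (258 unadjusted), 1 with limma on the normalized table and 0 to 29 when a library was left out (0 without WT 1, WT 2 or HET 2). With at least 10 reads in every library 26 members remained, 9 higher and 17 lower, with a median SD of 0.88 against 2.05. Of these 26 members 0 did not overlap, against 10.1% of all genes at this setting. Leaving out a library gave a median SD of 1.13 to 2.24, 19 to 31 members higher, 23 to 34 lower and 3 to 13 not overlapping, where 15.0% to 21.6% of all genes did not overlap; the 13 of 55 arose without HET 2 (21.6% of all genes). Members not overlapping were 0 with upper-quartile scaling (8.57% of all genes) and library size alone (7.97%), and 1 in TPM (7.87%), an alternative chosen after seeing the data. On the normalized table they were 3 (Eif5a, Eif5a2 and Eif6; 9.64% of all genes) and no longer Eif3c or Eif3e. Same-numbered libraries did not deviate together (correlations 0.016, -0.025 and -0.069), so the numbers were not taken as pairs; with the replicate block 0 genes were called by edgeR (108 unadjusted) and 0 members.

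Of the 51 tested members, 17 kept 1 sign in every fit and 34 had both signs. Sign changes of the genes named by rule follow, and the cause was not tested. With the replicate block they were -5.50 for Eefsec, 0.23 for Eif2b2, -0.17 for Eif2s2, 0.24 for Eif2s3x and -0.011 for Eif4g2. With limma-voom they were -0.14 for Eef2, 0.052 for Eef2k, -1.82 for Eefsec, 1.06 for Eif2b2, 0.21 for Eif2s3x, -0.050 for Eif4a1 and -0.33 for Eif4g2. On log2(CPM + 1) they were -0.61 for Eefsec and -0.18 for Eif2s2. On the normalized table they were -1.08 for Eefsec, 0.38 for Eif2b2, 0.094 for Eif4a2, 0.27 for Eif4b and 0.21 for Eif5. RLE scaling gave 0.21 for Eif2a and 0.24 for Eif4g1, and DESeq2 0.20 and 0.22. Upper-quartile scaling gave 0.075 for Eif4b. Library size alone gave 0.035 for Eif2b2, -0.23 for Eif2d and 0.13 for Eif4b. Leaving out a library gave ranges of -0.20 to 0.82 for Eef1a1, -0.40 to 0.94 for Eef2, -1.76 to 1.19 for Eef2k, -6.22 to 2.77 for Eefsec, -3.30 to 2.50 for Eif2b2, -2.98 to 9.80 for Eif2d, -0.57 to 0.72 for Eif2s2, -1.67 to 1.43 for Eif2s3x, -0.33 to 1.42 for Eif4a1, -1.46 to 0.37 for Eif4a2, -0.73 to 0.043 for Eif4b, -0.11 to 1.93 for Eif4ebp2, -2.27 to 0.089 for Eif4enif1, -1.74 to 0.17 for Eif4g1, -0.58 to 0.58 for Eif4g2 and -0.32 to 2.58 for Eif5a. Other printed fold changes with both signs ranged over all fits from -1.01 to 1.45 for Eif1ax, -0.42 to 0.57 for Eif2s1, -3.87 to 0.67 for Eif3k, -1.83 to 2.30 for Eif4e2 and -1.92 to 1.30 for Eif5b. A library left out leaves 2 in its group. The biological coefficient of variation was 1.66 and the median SE of members 2.22 on the log2 scale. The log2 fold change of 4.53 of Eef1d, which had 37 reads or fewer in WT, had an SE of 3.35 and an edgeR adjusted p of 0.971. Large changes of members could thus go undetected, more so at low level. The median SE of members was 2.87 under a mean log2 CPM of 3 and 1.60 at 6 or over.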
